A study of Mus musculus with 4 samples.

Results

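The genes described here are those that the deposited m6A site lists assign to protein processing in the endoplasmic reticulum (ER), the compartment where secreted and membrane proteins are made, folded and checked. They were taken as the genes whose pathway annotation in the lists names that process, leaving out rows also annotated to the spliceosome and genes whose names start with Ube, Cul, Rnf or Fbx. Of 5934 listed genes, 84 carried the annotation. The rule left out Hspa1a and Hspa1b through the spliceosome annotation and 8 genes by name (Cul1, Fbxo6, Rnf185, Ube2d3, Ube2e1, Ube2j1, Ube2j2 and Ube4b), so 74 genes remained. They carried 61 sites in 44 genes in the KO list and 160 sites in 70 genes in the WT list. Among listed genes, no fold enrichment, score or false discovery rate entered the choice. A gene without a listed site in either genotype could not be a member. Genes keep the names in the lists, of which 4 now have another symbol: Ero1l is Ero1a, March6 is Marchf6, Ufd1l is Ufd1 and Vimp is Selenos.

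The study dissected pancreas from E15.5 mouse embryos (the day of gestation) of 2 genotypes. KO embryos, named Mettl3pKO by the submitters, had Mettl3, which encodes the catalytic subunit of the m6A writer, deleted in Pdx1+ progenitors of the pancreas, and WT embryos were the controls. Each genotype had 1 MeRIP library, from RNA fragments of about 200 nt pulled down by an antibody to m6A, and 1 input library without the pull-down. The sources used here do not give the promoter that drove the deletion, the number of embryos pooled or their sex.

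Proteins enter the ER through a membrane channel, receive sugar chains, fold with the help of chaperones and disulfide-forming enzymes, and then leave in coated vesicles or are sent back to the cytosol and degraded. When unfolded proteins accumulate, sensors in the ER membrane start the unfolded protein response, which raises chaperone synthesis and slows translation. Acinar and islet cells of the pancreas secrete large amounts of protein and depend on this machinery, and m6A, a methyl group on adenosine inside mRNA, affects how long an mRNA lasts and how well it is translated.

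Deleted and undeleted cells were not separated, so sites from cells outside the Pdx1 lineage cannot be told apart from its own, and fewer cells of a type cannot be told apart from less RNA per cell. Of 34 marker genes looked up, 10 had a KO site and 18 a WT site. Pdx1, Ptf1a, Neurog3, Cpa1 and Ins1, markers of pancreatic progenitors, endocrine progenitors, acinar cells and beta cells, had no site in either list. Other markers of these cells did have sites: Nkx6-1 and Amy2a5 in both lists, Sox9, Prss1 and Ins2 in WT only, and Cela1 in KO only. Mesenchyme markers were listed for 3 of 4 genes in each genotype, and the liver markers Alb and Afp were listed in WT only. The lists hold no transcript level, and Mettl3 had no site in either, so the deletion itself could not be checked. The part of other cell types in the results was not tested.

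More of the ER genes seen in WT were also seen in KO than among all genes. Of the 70 members listed in WT, 40 had at least 1 KO site anywhere in the gene, or 57.1% (Wilson 95% interval 45.5 to 68.1%), against 37.9% (36.6 to 39.3%) of the 5085 genes with a WT site. These intervals cover counting over genes only, and genes are not replicates. Among the genes with any pathway annotation, leaving out the members, the share was 40% (733 of 1833). It was 46.4% (32 of 69) for ubiquitin mediated proteolysis, 44.9% (57 of 127) for endocytosis and 32.4% (22 of 68) for the spliceosome. The size of the difference depended on which sites were counted. With only sites at a false discovery rate of at most 50%, the share was 36.8% (25 of 68) for the members, against 30.2% for all genes. This limit kept 33 of 61 member KO sites (54.1%), against 70.1% of all KO sites. It removed the member KO site of smallest p-value, at the start of Ubqln1 (rate 98.3%). Some weak sites were removed too, such as that of Bag1 (50.9%), so the limit did not select the clearer sites. With only sites of at least 5-fold enrichment the share was 39.1% (27 of 69) for the members, against 32.0% for all genes. No test between genotypes could be made, since each was represented by a single library of each kind.

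In the opposite direction, 40 of the 44 members with a KO site also had a WT site, or 90.9% (78.8 to 96.4%), against 69.4% of the 2778 genes with a KO site. The 4 members listed in KO only were Dnajb11, Capn1, Man1a and Ubxn6, and 30 members were listed in WT only. Sites at the same place were less common than genes listed in both. Of the 160 member sites in WT, 23 were overlapped by a KO site by at least 1 bp, or 14.4% (9.77 to 20.6%), against 12.2% of all 10514 WT sites. Of the 61 member sites in KO, 23 were overlapped by a WT site, or 37.7%, against 32.6% of all 3937 KO sites. A gene with such a pair of sites was found for 17 of the 70 members with a WT site, or 24.3% (15.8 to 35.5%), against 20.5% of all genes with a WT site. The shares of all WT sites and of all WT-listed genes fell inside the members' intervals. Among the genes listed in both genotypes, such a pair was found in 42.5% of members (17 of 40), against 54.1% of all genes (1043 of 1929).

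**Figure D1:**
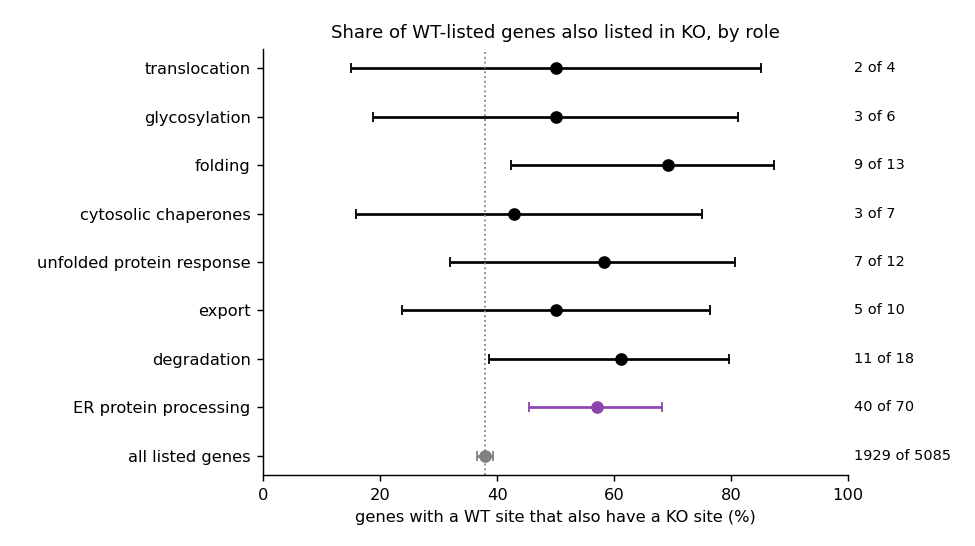
Share of WT-listed genes that were also listed in KO (%, x axis), by role within ER protein processing, for all members (purple) and for all listed genes (grey). Points are shares, bars are Wilson 95% intervals over genes, the dotted line marks 37.9% of all genes, and counts stand on the right. The share ran from 42.9% for cytosolic chaperones to 69.2% for folding, and the intervals of all 7 roles overlapped one another.

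The number of sites a gene carried in WT went with the share. Among members with 1 WT site, 46.2% (12 of 26; 28.8 to 64.5%) were also listed in KO, against 26.2% (724 of 2762) of all genes with 1 WT site. With 2 WT sites the share was 60.0% (12 of 20; 38.7 to 78.1%) of members, against 40.2% of all genes. With 3 it was 60.0% (6 of 10; 31.3 to 83.2%) of members, against 51.7%. With 4 or more it was 71.4% (10 of 14; 45.4 to 88.3%) of members, against 69.3%. Members and all genes thus lay furthest apart, in percentage points, among genes with 1 or 2 WT sites. Only at 1 WT site did the members' interval leave out the share of all genes.

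**Figure D2:**
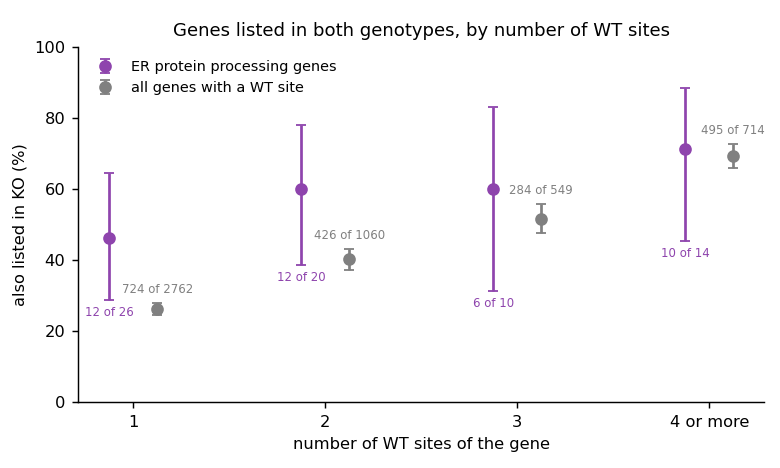
Share of WT-listed genes that were also listed in KO (%, y axis), by the number of WT sites of the gene (x axis), for the ER protein processing genes (purple) and for all genes with a WT site (grey). Points are shares, bars are Wilson 95% intervals over genes, and counts stand beside them. The members' share was 46.2% at 1 site and 71.4% at 4 or more, against 26.2% and 69.3% for all genes.

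The share also differed with the strength of the gene's best WT site. The deposited score is 10 times the negative log10 of the caller's p-value, so a higher score means a clearer site. When all genes with a WT site were divided into 4 equal bins by best score, 30 of the 70 members fell in the highest bin, and 21 of them (70%; 52.1 to 83.3%) were also listed in KO, against 48.6% of all genes there. In the next bin down by score the share was 50% (8 of 16) of members, against 41.9% of all genes. In the second-lowest bin it was 62.5% (10 of 16; 38.6 to 81.5%) of members, against 34.5% of all genes. In the lowest bin 1 of 8 members (12.5%; 2.24 to 47.1%) was also listed in KO. There the share of all genes was 26.7%, inside the members' interval. The members' share was thus above that of all genes in every bin but the lowest. Gene length, introns included, had a median of 36.8 kb in the members and 35.2 kb over all listed genes.

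Fold enrichment, the authors' ratio of MeRIP over input at a site, is given below as each list has it, with no ratio between genotypes. KO member sites had a median fold enrichment of 5.38 (quartiles 4.47 and 7.18, range 2.99 to 10.05), against 6.20 (5.16 and 7.41) over all KO sites. WT member sites had a median of 7.80 (6.41 and 9.64, range 3.06 to 15.54), against 7.91 (6.49 and 9.54) over all WT sites. The spliceosome genes had a KO median of 5.40, close to that of the ER genes. Scores of members were higher than over the whole list in both genotypes, with a median of 70.5 in KO members against 68.9 over all KO sites, and 103 in WT members against 84.4 over all WT sites. The deposited false discovery rates lay between 46.6 and 98.3% for KO member sites and between 9.78 and 100% for WT member sites, and several of the clearest sites by score had the highest rates. No KO site of these genes thus had a false discovery rate under 46.6%. This held for the KO list as a whole, where the lowest rate over all 3937 sites was 45.9%.

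**Figure D3:**
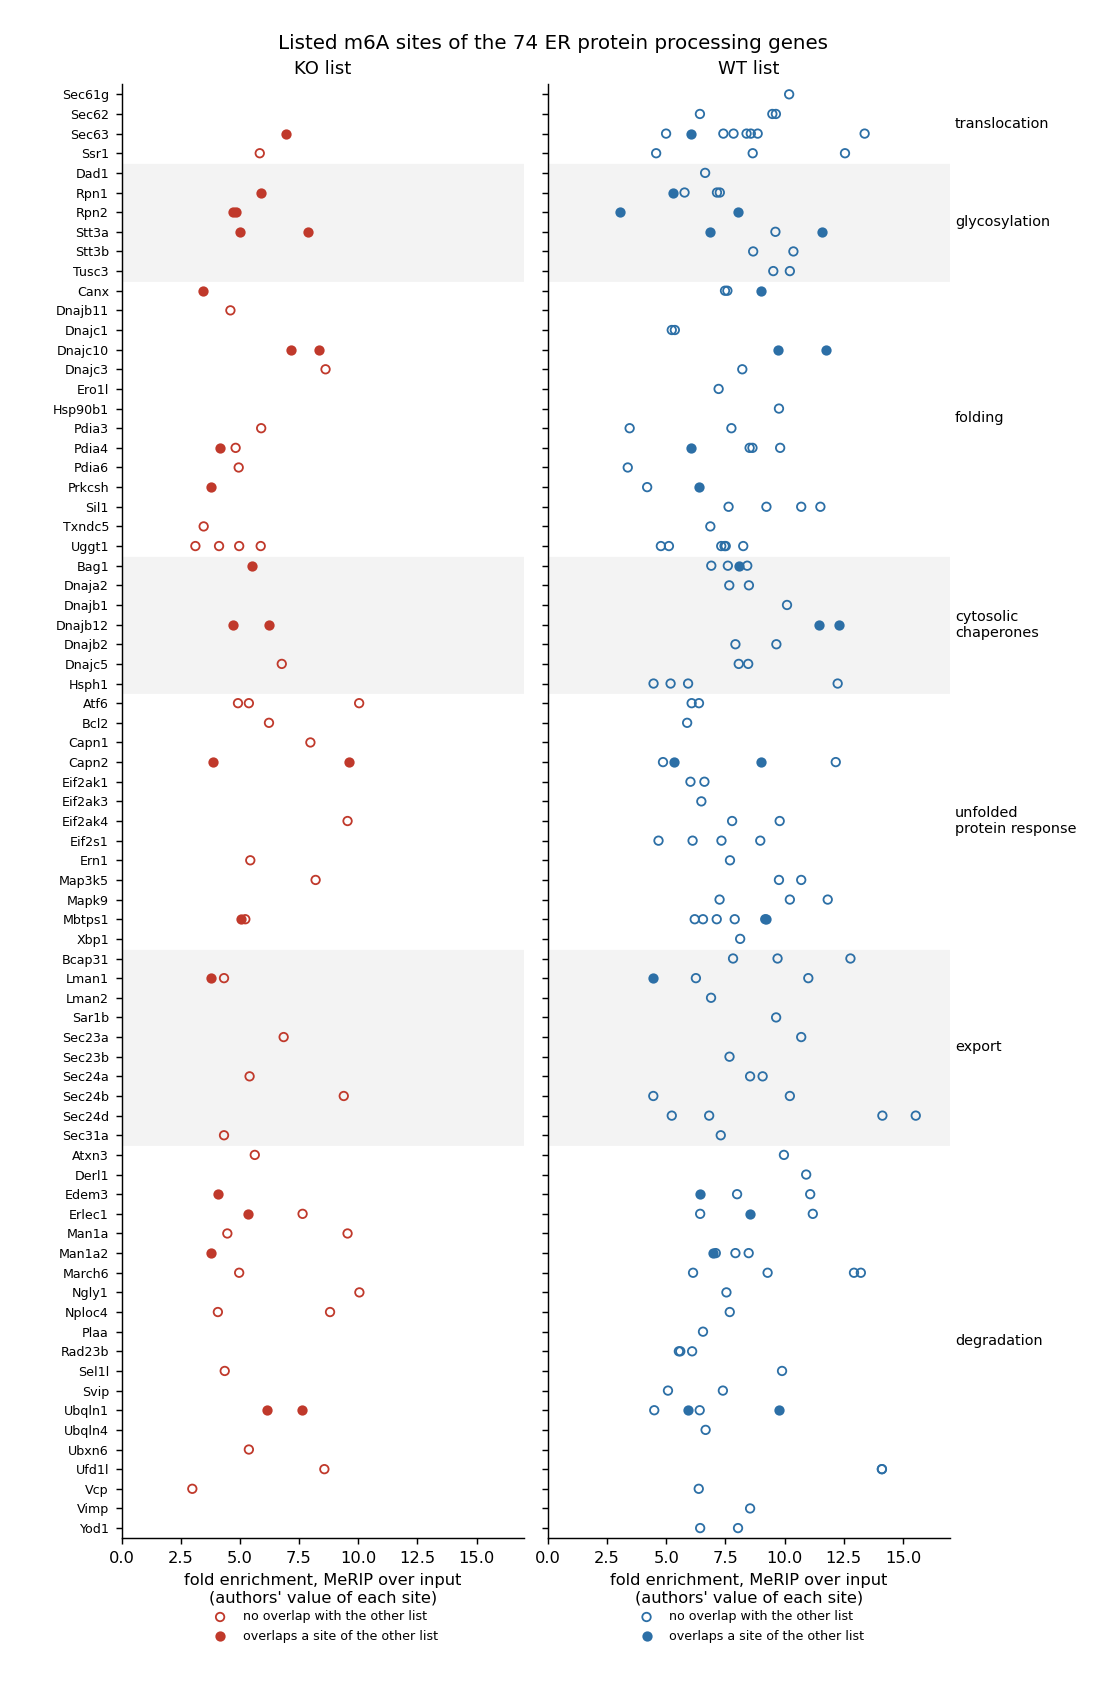
Fold enrichment of each listed site of the 74 ER protein processing genes, MeRIP over input (authors' values, x axis), in the KO list (left, red) and the WT list (right, blue), with genes in rows grouped by role. Each circle is 1 site, and filled circles overlap a site of the other list by at least 1 bp. KO sites lay between 2.99 and 10.05 and WT sites between 3.06 and 15.54, and 23 sites of each list are filled.

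Translocation, the entry of new proteins into the ER, was represented by Sec63, Ssr1, Sec62 and Sec61g. All 4 had a WT site and 2 of them, Sec63 and Ssr1, had a KO site. This was 50% (15.0 to 85.0%), beside 37.9% of all genes with a WT site. Sec63, a membrane J-protein that brings the chaperone BiP to the channel, carried 1 site in KO and 8 in WT, the most WT sites of any member. Its KO site (chr10:42806524-42806671) had a fold enrichment of 6.96 and a score of 87.6 in KO, with a false discovery rate of 47.0%, and the same interval in WT had a fold enrichment of 6.03, a score of 96.9 and a false discovery rate of 10.8%. The other 7 WT sites of Sec63 ran from 4.99 to 13.38 in fold enrichment and had no KO counterpart. The clearest of them by score lay at chr10:42815055-42815213, with a score of 340 and a fold enrichment of 8.57.

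Ssr1, the alpha subunit of the translocon-associated protein complex, had its KO site at the start of the gene (chr13:37994005-37994190; fold enrichment 5.84, score 62.8) and 3 WT sites further along, with fold enrichments of 12.55, 8.65 and 4.57. The nearest KO and WT sites of Ssr1 did not overlap. Sec62, which works with Sec63 on proteins imported after their synthesis, had 3 WT sites and no KO site, the strongest by fold enrichment at chr3:30809822-30810026 (9.63, score 88.7, false discovery rate 10.6%). Sec61g, the small gamma subunit of the channel, had 1 WT site (chr11:16508079-16508318; 10.19, score 130, false discovery rate 14.1%). The channel's main subunits Sec61a1 and Sec61b had no site in either list.

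Glycosylation was represented by the oligosaccharyltransferase, the complex that attaches sugar chains to proteins as they enter the ER. All 6 members had a WT site, and 3 of them (Rpn1, Rpn2 and Stt3a) also had a KO site. This was 50% (18.8 to 81.2%), beside 37.9% of all genes with a WT site. In each of these 3 every KO site coincided with a WT site. Of the 14 WT sites of the group, 5 were overlapped by a KO site, or 35.7% (16.3 to 61.2%), beside 12.2% of all WT sites. Rpn2, a structural subunit, had 2 sites in each genotype at identical intervals. At chr2:157312477-157312591 the fold enrichment was 4.82 in KO and 3.06 in WT, with scores of 188 in KO and 79.0 in WT and false discovery rates of 84.7% in KO and 10% in WT. At chr2:157314778-157314972 it was 4.73 in KO and 8.03 in WT, with scores of 168 in KO and 188 in WT and false discovery rates of 74.7% in KO and 23.2% in WT. Neighbouring sites of Rpn2 thus had their higher fold enrichment in different genotypes.

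Rpn1, another structural subunit, shared 1 of its 4 WT sites with KO (chr6:88099274-88099373), with fold enrichments of 5.90 in KO and 5.30 in WT, scores of 59.9 in KO and 106 in WT, and false discovery rates of 48.4% in KO and 11.5% in WT. Stt3a, a catalytic subunit, shared 2 of 3 WT sites. Near its start (chr9:36767063-36767350) the fold enrichment was 7.89 in KO and 11.57 in WT, with scores of 140 in KO and 104 in WT and false discovery rates of 62.4% in KO and 11.3% in WT. Further along (chr9:36741714-36741830) it was 5.0 in KO and 6.84 in WT, with scores of 59.9 in KO and 106 in WT and false discovery rates of 48.4% in KO and 11.5% in WT. Stt3b, the alternative catalytic subunit, was listed in WT only, with 2 sites of which the stronger (chr9:115246045-115246257) had a fold enrichment of 10.37, a score of 475 and a false discovery rate of 79.2%. Tusc3, an oxidoreductase subunit that works with Stt3b, was also listed in WT only, with its stronger site at chr8:39130743-39130817 (10.22, score 65.9, false discovery rate 9.85%). Dad1, a small subunit, had 1 WT site of 6.64. The catalytic subunit Stt3a was thus listed in both genotypes, and Stt3b, Tusc3 and Dad1 in WT only. Of the complex's genes that were no members, Ostc was also listed in WT only, with 2 sites and a best fold enrichment of 7.42. Ddost, Krtcap2, Magt1 and Ost4 had no site in either list.

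Folding held 14 members, of which 10 had a KO site, 13 a WT site and 9 both, or 69.2% (42.4 to 87.3%) of those with a WT site, beside 37.9% of all genes. Counting only sites of at least 5-fold enrichment, 4 of 12 (33.3%) were in both, against 32.0% of all genes. The median fold enrichment was 4.82 for the KO sites of these genes, against 6.20 over all KO sites, and 7.54 for their WT sites, against 7.91 over all WT sites. Canx, the membrane-bound lectin chaperone calnexin, had a KO site of 3.44 (score 117, false discovery rate 57.5%) at chr11:50307470-50307662, where WT had 8.98 (score 288, false discovery rate 41.6%). Its 2 other WT sites had fold enrichments of 7.58 and 7.48. The first of them had a score of 1820.81, above 99.9% of WT sites, and a false discovery rate of 100%. Prkcsh, the beta subunit of glucosidase II, which trims the sugar chain that calnexin reads, had 3.76 in KO and 6.40 in WT at chr9:22008244-22008373, with scores of 51.6 in KO and 134 in WT and false discovery rates of 51.1% in KO and 14.6% in WT. Uggt1, which puts the glucose back on a misfolded glycoprotein, had 4 sites in KO and 6 in WT and none of them overlapped. The KO sites of Uggt1 had fold enrichments of 5.88, 4.97, 4.12 and 3.12, and the WT sites ran from 4.77 to 8.25. The best of each were at chr1:36174896-36175102 in KO (score 110, false discovery rate 53.9%) and at chr1:36185833-36185968 in WT (score 62.0, false discovery rate 9.97%).

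**Figure D4:**
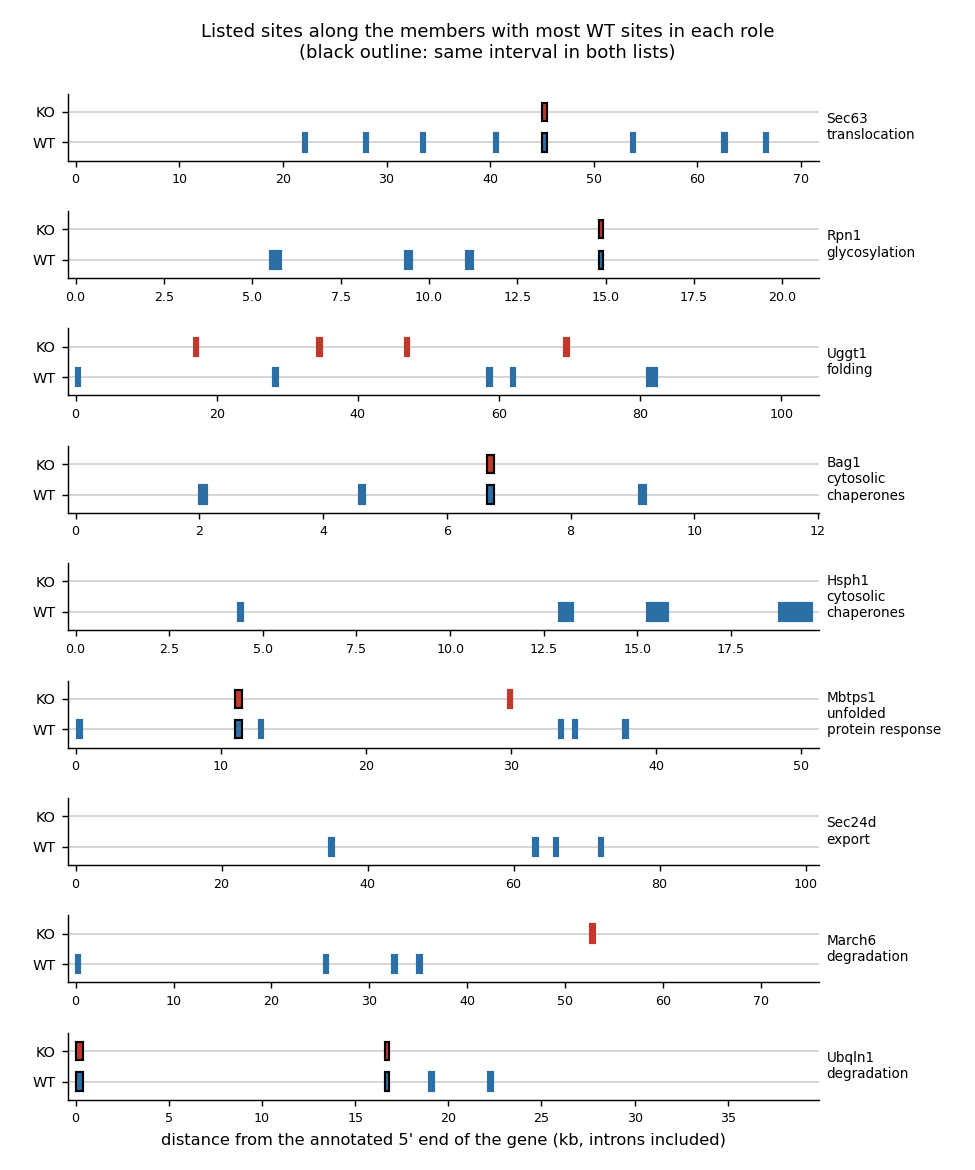
Listed sites along the members with the most WT sites in each role, KO (red) above WT (blue), by distance from the annotated 5′ end of the gene (kb, introns included, x axis). Bars are sites drawn with a minimum width for visibility, so the 2 neighbouring WT sites of Uggt1 furthest from the start appear as 1 bar, and a black outline marks the same interval in both lists. Sec63 had 1 KO site among 8 WT positions, Uggt1 had 4 KO and 6 WT sites with none in common, and Sec24d and Hsph1 had no KO site. Man1a2, also with 4 WT sites, is not drawn because the reference table used here gave no strand for it.

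The disulfide-forming enzymes were listed in both genotypes in 4 of 5 cases, beside 37.9% of all genes with a WT site. Pdia4 had 2 sites in KO and 4 in WT and shared 1 interval (chr6:47798365-47798598), with fold enrichments of 4.16 in KO and 6.04 in WT, scores of 163 in KO and 252 in WT and false discovery rates of 71.4% in KO and 33.9% in WT. Pdia3, the isomerase that pairs with calnexin, had 1 KO site of 5.90 and WT sites of 7.75 and 3.45. Pdia6 had 1 site in each, of 4.95 in KO and 3.37 in WT, and was among the few genes whose best fold enrichment was higher in KO. Txndc5 had 1 site in each, of 3.47 in KO and 6.86 in WT. Ero1l, the oxidase that recharges these enzymes, was listed in WT only, with 1 site of 7.21. None of the KO sites of Pdia3, Pdia6 and Txndc5 overlapped a WT site.

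The J-proteins of the ER lumen, which steer the chaperone BiP to its clients, were Dnajc10, Dnajc3, Dnajb11 and Dnajc1. Dnajc10, which also reduces disulfides, had 2 sites in each genotype at identical intervals. At chr2:80349269-80349388 the fold enrichment was 8.34 in KO and 11.73 in WT, with scores of 114 in KO and 156 in WT and false discovery rates of 55.4% in KO and 17.8% in WT. At chr2:80319160-80319322 it was 7.18 in KO and 9.70 in WT, with scores of 76.8 in KO and 151 in WT and false discovery rates of 47.7% in KO and 17.1% in WT. Both sites of Dnajc10 were thus listed in both genotypes, with the lower fold enrichment in KO. Dnajc3, which also restrains the kinase Eif2ak3, had 1 site in each genotype, of 8.62 in KO and 8.21 in WT, at different places. Dnajb11 was listed in KO only, with a site at its start (chr16:22857845-22858109; 4.60, score 59.7, false discovery rate 48.2%), and Dnajc1 in WT only, with sites of 5.36 and 5.23. The Dnajc1 site of 5.36 also crosses the gene Mllt10, and the strand of the reads is not given, so it could belong to either gene.

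Hspa5, which encodes BiP, the main Hsp70 chaperone of the ER, had no site in either list. Hsp90b1, the ER form of Hsp90 (GRP94), was listed in WT only, with 1 site (chr10:86698319-86698438) of fold enrichment 9.76, score 881 and false discovery rate 100%. That score was above 99.6% of WT sites, and Hsp90b1 had no site in KO. Sil1, the exchange factor that releases nucleotide from BiP, had 4 WT sites with fold enrichments of 11.51, 10.70, 9.23 and 7.63 and no KO site. The strongest by fold enrichment had a score of 116 and a false discovery rate of 12.4%. BiP and its partners thus ranged from no listed site (Hspa5) to 2 sites in both genotypes (Dnajc10).

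Many ER chaperone genes carry in their promoters the ER stress response element, a CCAAT box and a CCACG box 9 bases apart that Atf6 binds together with the factor NF-Y. The promoters of genes that carry it are shown because they tell the chaperones of this set apart at the DNA level, by a feature that the choice of members did not use. The promoter sequences are from RefSeq on GRCm38.p6, the assembly of mm10, and 66 of the 74 members had one. CCAAT, any 9 bases and CCACG were searched on both strands in the 250 bases before each annotated start. The element occurred in 35 of 27025 genes with a promoter, or 0.130%, and in 4 members: Hsp90b1, which held 2 copies, Canx, Dnajc3 and Pdia6. The capitals mark the CCAAT and CCACG boxes, or their complements ATTGG and CGTGG where the element lies on the opposite strand, within 59 bases each in the direction of transcription:
Hsp90b1, first copy, chr10:86705618-86705676, minus strand: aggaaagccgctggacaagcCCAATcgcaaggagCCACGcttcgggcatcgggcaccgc
Hsp90b1, second copy, chr10:86705513-86705571, minus strand: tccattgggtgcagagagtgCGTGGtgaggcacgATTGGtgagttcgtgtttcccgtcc
Canx, chr11:50325780-50325838, minus strand: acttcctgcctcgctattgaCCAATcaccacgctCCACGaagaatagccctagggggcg
Dnajc3, chr14:118937807-118937865, plus strand: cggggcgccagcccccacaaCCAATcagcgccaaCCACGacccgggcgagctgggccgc
Pdia6, chr12:17266471-17266529, plus strand: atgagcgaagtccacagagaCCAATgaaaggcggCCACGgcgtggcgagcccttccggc
Hspa5, chr2:34772005-34772063, plus strand: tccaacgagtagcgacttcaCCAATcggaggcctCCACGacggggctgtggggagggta

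Over the whole list of ER pathway genes looked up here, members and others, 157 had a promoter and 10 held the element. Of these 10, the 4 members named above had a listed m6A site, 3 of them in both genotypes, and Hspa5, Calr, Calr4, Derl3, Ero1b and Syvn1 had none in either list. Of the 147 genes without the element, 80 had a listed site in at least 1 genotype. A match to these letters is a description of the window and no evidence of binding.

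The cytosolic chaperones, which keep precursors and extracted proteins soluble outside the ER, numbered 7, all with a WT site and 3 with a KO site. Dnajb12, a J-protein anchored in the ER membrane that faces the cytosol, had 2 sites in each genotype and both overlapped. At the start of the gene (KO chr10:59879556-59879810, WT chr10:59879580-59879810) the fold enrichment was 4.69 in KO and 11.45 in WT, with scores of 57.4 in KO and 124 in WT and false discovery rates of 49.2% in KO and 13.5% in WT. This was the single pair of the 23 whose intervals were not identical. At chr10:59890028-59890208 it was 6.23 in KO and 12.30 in WT, with scores of 58.3 in KO and 213 in WT and false discovery rates of 47.8% in KO and 27.2% in WT. Bag1, an exchange factor for cytosolic Hsp70, shared 1 of its 4 WT sites (chr4:40941525-40941638), with 5.53 in KO and 8.09 in WT, scores of 50.5 in KO and 217 in WT and false discovery rates of 50.9% in KO and 28% in WT. Dnajc5, the cysteine string protein of secretory vesicles, had a KO site of 6.77 that lay 1719 bp from its nearest WT site. That KO interval was 5184 bp wide, against a median of 201 bp over all KO sites, and ran past the annotated end of the gene.

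The other 4 cytosolic members were listed in WT only. Hsph1, an Hsp110 chaperone, had 4 WT sites, the strongest by fold enrichment at chr5:149632034-149632174 (12.24, score 195, false discovery rate 24.0%). Dnajb1, a J-protein of the heat shock response, had 1 WT site, at its start (chr8:83608184-83608542; 10.10, score 59.4, false discovery rate 9.92%). Dnaja2 and Dnajb2, also J-proteins, had 2 WT sites each, with best fold enrichments of 8.49 and 9.65. The Hsp70 and Hsp90 genes Hspa8, Hsp90aa1 and Hsp90ab1, which these cochaperones serve, had no site in either list.

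The unfolded protein response group held 13 members, of which 8 had a KO site, 12 a WT site and 7 both, or 58.3% (32.0 to 80.7%) of those with a WT site, beside 37.9% of all genes. An overlapping pair of sites was found in 2 of 12 (16.7%), against 20.5% of all genes. Of the 3 ER stress sensors, 2 were listed in both genotypes. Ern1, the kinase and RNase IRE1 alpha, had 1 KO site of 5.44 (chr11:106426813-106426935, score 52.1) and 1 WT site of 7.69 (chr11:106407041-106407240, score 73.8), 19572 bp apart. Atf6, a membrane-bound transcription factor, had 3 KO sites of 10.04, 5.38 and 4.92 and 2 WT sites of 6.38 and 6.07, none overlapping. The WT site of 6.07 was 5631 bp wide, against a median of 203 bp over all WT sites. Atf6 and Nploc4 were the 2 members listed in both genotypes that had more sites in KO than in WT. Eif2ak3, the kinase PERK, had 1 site, in WT only, of 6.48 (chr6:70900232-70900333, score 78.4, false discovery rate 10.1%).

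Downstream of the sensors, Mbtps1, the site-1 protease that cuts Atf6, had 2 KO and 6 WT sites, the most in this group. The shared interval (chr8:119547400-119547885) had 5.03 in KO and 9.21 in WT, with scores of 82.5 in KO and 233 in WT and false discovery rates of 46.8% in KO and 30.8% in WT. Xbp1, the transcription factor whose mRNA Ern1 cuts and splices, was listed in WT only, with 1 site at its start (chr11:5520641-5521200; 8.12, score 97.7). Atf4 and Ddit3, the transcription factors of the Eif2ak3 branch, had no site in either list. Eif2s1, the translation factor that Eif2ak3 phosphorylates, had 4 WT sites and no KO site, the strongest by fold enrichment at the start (chr12:78861819-78862180; 8.97, score 54.8, false discovery rate 10.2%). That start site also crosses the gene Atp6v1d. Components listed in both genotypes, in WT only and in neither list thus stood side by side within the response.

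The other kinases of the group act on the same translation factor or on stress signalling. Eif2ak4, the amino acid sensor GCN2, had a KO site of 9.55 at its start (score 165) and 2 WT sites of 9.79 and 7.78 further along. Eif2ak1, the haem-regulated kinase, had 2 WT sites of 6.61 and 6.02 and no KO site, and the site of 6.02 crosses the gene Aimp2. Map3k5 (ASK1), a kinase that Ern1 can switch on, had 1 KO site of 8.20 and 2 WT sites of 10.70 and 9.76. Mapk9 (JNK2) had 3 WT sites and no KO site, the strongest at chr11:49881219-49881282 (11.82, score 104, false discovery rate 11.3%). Of the genes linked to cell death, Bcl2, an inhibitor of apoptosis, had long KO and WT sites 170683 bp apart. The KO site of 6.23, 2848 bp wide, lay near the 3′ end of the gene. The WT site of 5.88, 2180 bp wide, lay at the 5′ end. Capn2, a calcium-dependent protease, had 2 KO and 4 WT sites and shared both KO intervals. At chr1:182481447-182481658 the fold enrichment was 9.61 in KO and 8.98 in WT, with scores of 165 in KO and 50.9 in WT and false discovery rates of 72.8% in KO and 10.7% in WT. At chr1:182467256-182468235, by the 3′ end, it was 3.88 in KO and 5.32 in WT, with scores of 104 in KO and 87.9 in WT and false discovery rates of 52.7% in KO and 10.6% in WT. Capn1, its close relative, was listed in KO only (chr19:5997691-5997866; 7.98, score 88.4, false discovery rate 47.1%).

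Export from the ER was represented by 10 members, all with a WT site and 5 of them (50%; 23.7 to 76.3%) with a KO site, beside 37.9% of all genes. Of the 19 WT sites, 1 was overlapped by a KO site, or 5.26% (0.935 to 24.6%), an interval that holds the 12.2% of all WT sites. That site belonged to Lman1, the lectin that carries glycoproteins to the Golgi, with 3.80 in KO and 4.43 in WT, scores of 141 in KO and 95.6 in WT and false discovery rates of 63.4% in KO and 11% in WT. The genes of the inner COPII coat, which selects cargo, divided as follows. Sec23a had 1 site of 6.85 in KO and 1 of 10.70 in WT, Sec24a had 1 of 5.41 in KO and 2 of 9.07 and 8.54 in WT, and Sec24b had 1 of 9.39 in KO and 2 of 10.22 and 4.45 in WT. Sec31a, of the outer coat, had 1 of 4.33 in KO and 1 of 7.30 in WT. In these 4 genes the KO site lay elsewhere than the WT sites.

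Sec24d, another cargo-binding coat subunit, had no KO site and the highest fold enrichment of any member site, 15.54 in WT (chr3:123330324-123330439; score 321, false discovery rate 48.3%). Its 3 other WT sites had 14.13, 6.81 and 5.23. Bcap31, a chaperone that escorts membrane proteins out of the ER, had 3 WT sites, the strongest at chrX:73688660-73688780 (12.78, score 197, false discovery rate 24.4%). Sec23b, the GTPase Sar1b, which starts coat assembly, and the cargo lectin Lman2 had 1 WT site each, of 7.67, 9.64 and 6.89. Sec23a and Sec23b, and Sec24a, Sec24b and Sec24d, are related copies, and the members of each family were thus not listed alike.

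Degradation was the largest group, with 20 members, of which 13 had a KO site, 18 a WT site and 11 both, or 61.1% (38.6 to 79.7%) of those with a WT site, beside 37.9% of all genes. Counting only sites of at least 5-fold enrichment this was 33.3% (6 of 18), against 32.0% of all genes, and with an overlapping pair required it was 22.2% (4 of 18), against 20.5%. The mannosidase-type proteins that mark glycoproteins for disposal were Man1a, Man1a2 and Edem3, and Erlec1 is a lectin that recognises the trimmed chain. Man1a2 shared 1 of its 4 WT sites (chr3:100656019-100656274), with 3.76 in KO and 6.99 in WT, scores of 120 in KO and 487 in WT and false discovery rates of 57.8% in KO and 79.9% in WT. Its other WT sites had 8.48, 7.92 and 7.09. Man1a was listed in KO only, with sites of 9.55 (chr10:53925430-53925545; score 115, false discovery rate 56.4%) and 4.47 (chr10:53919158-53919330; score 66.0, false discovery rate 46.8%). The related Man1a and Man1a2 were thus listed differently.

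Edem3 shared 1 of 3 WT sites (chr1:151804278-151804443), with 4.09 in KO and 6.41 in WT, scores of 59.2 in KO and 144 in WT and false discovery rates of 48.0% in KO and 15.9% in WT. Erlec1 shared 1 of 3 WT sites (chr11:30951307-30951387), with 5.34 in KO and 8.55 in WT, scores of 66.2 in KO and 83.5 in WT and false discovery rates of 46.9% in KO and 10.3% in WT. Among the membrane components, Sel1l, the adaptor of the main ER ubiquitin ligase, had a KO site of 4.36 and a WT site of 9.89, at different places. The KO site had a score of 186 and a false discovery rate of 84.2%, and the WT site a score of 1151.86 and a rate of 100%. The ligase March6 had 1 KO site of 4.97 (chr15:31478295-31478496; score 62.3, false discovery rate 48.4%) and 4 WT sites of 13.22, 12.93, 9.28 and 6.13, with the strongest at its start (chr15:31530803-31531037; score 190, false discovery rate 23.4%). Derl1, a channel-like protein of the exit route, had 1 WT site (chr15:57883435-57883546; 10.91, score 55.5, false discovery rate 10.2%) and no KO site. Vimp, the selenoprotein that binds Vcp at the membrane, had 1 WT site (chr7:66083400-66083506; 8.54, score 199, false discovery rate 24.8%) and no KO site.

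Vcp, the ATPase that pulls proteins out of the membrane, had the lowest fold enrichment of any member site in KO, 2.99 (score 154), and a WT site of 6.37 at its start (score 276). Its cofactors Ufd1l and Nploc4 were both listed in both genotypes. Ufd1l had 8.57 in KO and a fold enrichment of 14.11 at each of 2 sites in WT, and Nploc4 had 8.81, at its start, and 4.07 in KO and 7.68 in WT. Ubxn6, another Vcp cofactor, was listed in KO only (chr17:56074836-56075028; 5.38, score 51.3, false discovery rate 51.3%). Its site lay at an annotated start inside the gene, 35.8% of the way along it. Svip, a small inhibitor of this process, had 2 WT sites of 7.39 and 5.07, and Plaa, a Vcp-associated protein, had 1 of 6.55. The extracted protein is then handled by other enzymes. Ngly1, which removes the sugar chain, had 10.05 in KO, the highest of any member site there, and 7.54 in WT. The deubiquitinase Atxn3 had 5.63 in KO and 9.97 in WT, and Yod1, another, had 2 WT sites of 8.03 and 6.43, both crossing the gene Pfkfb2.

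Of the shuttle proteins that deliver clients to the proteasome, Ubqln1 had 2 sites in KO, both at intervals listed in WT as well, and 4 in WT. At its start (chr13:58215284-58215653) the fold enrichment was 7.61 in KO and 5.90 in WT, with scores of 225 in KO and 243 in WT and false discovery rates of 98.3% in KO and 32.4% in WT. At chr13:58198919-58199070 it was 6.14 in KO and 9.76 in WT, with scores of 59.2 in KO and 133 in WT and false discovery rates of 48.0% in KO and 14.5% in WT. Rad23b had 3 WT sites of 6.09, 5.59 and 5.53, and Ubqln4 had 1 of 6.66. Neither of these was listed in KO.

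Over the 23 member pairs, the fold enrichment was higher in KO in 5, or 21.7%, against 19.4% of all 1289 overlapping pairs. These 5 were the pairs described above in Sec63, Rpn1, the first of Rpn2, the start site of Ubqln1 and the inner site of Capn2. Over the 40 members listed in both genotypes, the gene's best fold enrichment was higher in KO in 6 (Atf6, Bcl2, Dnajc3, Ngly1, Nploc4 and Pdia6) and in WT in 34. Over all genes listed in both it was higher in KO in 15.8%. WT had more sites in 24 of these 40 members, KO in 2, and 14 had equal numbers. The WT list was longer as a whole, with 10514 sites against 3937 in KO. The same count over all genes listed in both was not made. In the 23 of these 40 members without an overlapping pair, the nearest pair of sites lay a median of 14.3 kb apart, from 1719 bp in Dnajc5 to 170683 bp in Bcl2.

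A site was placed at a gene's start or end where it came within 50 bp of it, for genes whose strand was known. Every annotated start of a gene counted as a 5′ end, but only its outermost end as the 3′ end. Shares at 5′ and 3′ ends are thus not measured alike, and sites further from these ends were counted as inside. In KO, 7 of 52 sites (13.5%; 6.68 to 25.3%) lay at a 5′ end, against 12.1% of all KO sites. In WT, 13 of 139 sites (9.35%; 5.55 to 15.3%) did, against 6.99% of all WT sites. At 3′ ends there were 1 of 52 KO sites (1.92%; 0.340 to 10.1%), against 8.22% of all KO sites, and 10 of 139 WT sites (7.19%; 3.95 to 12.7%), against 10.9% of all WT sites. The interval of each member share held the share of all sites.

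**Figure D5:**
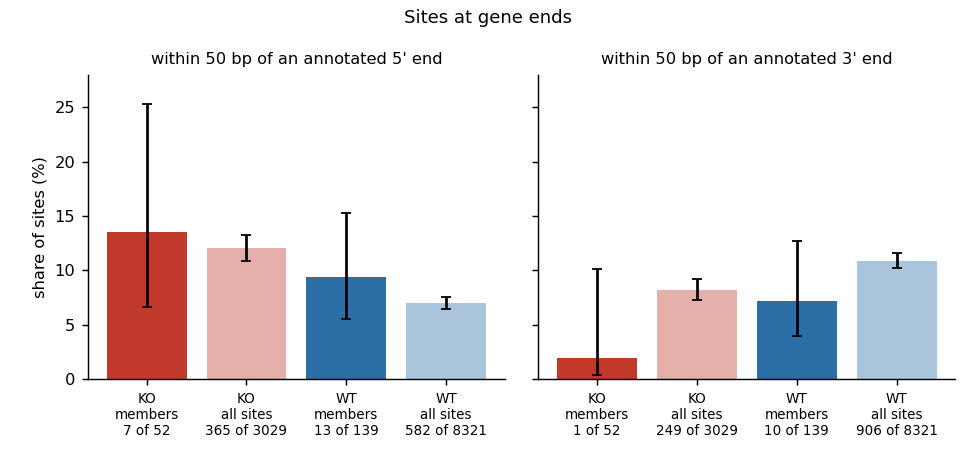
Share of sites (%, y axis from 0) within 50 bp of an annotated 5′ end (left) or 3′ end (right) of the gene, for the ER protein processing genes and for all sites of each list, KO in red and WT in blue. Bars are shares and error bars are Wilson 95% intervals over sites. Every annotated start of a gene counted as a 5′ end, but only its outermost end as the 3′ end. At 5′ ends the members had 13.5% in KO and 9.35% in WT, and at 3′ ends 1.92% and 7.19%.

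The members with a site at an annotated start numbered 18, of which 7 had one in KO (Ssr1, Dnajb11, Dnajb12, Eif2ak4, Nploc4, Ubqln1 and Ubxn6), 13 in WT, and 2, Dnajb12 and Ubqln1, in both. The first transcribed bases of 5 of them are shown because m6A antibodies also bind m6Am, a related mark that sits on the first base of an mRNA when that base is A, and because GGAC is a common core of the m6A consensus in mammals. Whether any start site carried m6Am was not tested. The sequences are from RefSeq on GRCm38.p6, the first 30 bases each, with capitals for the annotated first base and for any GGAC:
Dnajb12 (KO and WT site), chr10:59879583-59879612, plus strand: Cttccgcgccggcctgccccgcgacgcgcc
Ubqln1 (KO and WT site), chr13:58215624-58215653, minus strand: Agagtgccctgcgcggcgccggcgacgagc
Nploc4 (KO site), chr11:120437671-120437700, minus strand: GgcggagtgtgttgagcgaagcaccGGACa
Xbp1 (WT site), chr11:5520641-5520670, plus strand: Ctagggtaaaaccgtgagactcggtctgga
Pdia4 (WT site), chr6:47813483-47813512, minus strand: Gctcaggcagcggggcggggcggtgtaggc

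Of the 18 start windows, 4 began with A (22.2%), among them that of Ubqln1, against 26.4% of the 1087 windows of listed genes with a site at a start and 34.4% of all 32851 windows in the table. GGAC on the sense strand lay in the first 50 bases of 2 of the 18, Nploc4 and Xbp1, or 11.1%, against 17.7% of the windows of listed genes with a site at a start and 18.9% of all windows. Each member gave 1 window, that best covered by its site, whereas the comparison sets hold every annotated start of their genes. The shares are thus not like for like. The window of Svip, among those beginning with A, held no base of its site. The annotated first base can differ from the one used in the embryonic pancreas.

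Beyond the members, the 7 role lists held 116 further genes of the same machinery. Of these, 22 had a listed site without carrying the pathway annotation used here or after being left out by the rule, and 94 had none in either list. Counted with the 74 members, the role lists held 190 genes. Over all genes, 5934 had a listed site, beside 27025 genes with a promoter in the reference, so lacking a site was common among genes at large. The role genes without a site included Calr, P4hb and Hyou1 for folding, Ddost for glycosylation, Sec13 and Preb for export, and Syvn1, Os9, Edem1 and Herpud1 for degradation. Absence from a list cannot be told apart from too few reads, because neither depth nor transcript level is known.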

How the data were processed

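Embryonic mouse pancreas of each genotype gave 1 MeRIP and 1 input library, 4 in all. The submitters' processing notes name cutadapt 1.9.3, a read trimmer, HISAT2 2.0.4, an aligner, and the build mm10. Peak names in the deposited lists begin with MACS; its version and settings, and the handling of duplicate and multiply aligned reads, are not given in the sources. Per the file headers, each site has a fold enrichment (a ratio of MeRIP over input), a score (10 times the negative log10 p-value, lowest at 50, a p of 1e-05) and a false discovery rate, which was read as percent because deposited values reach 100. These are the authors' values of single peaks. That each MeRIP library was set against its own genotype's input is assumed. No counts were in the lists, so depth and its precision are unknown.

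Starts were taken as 0-based, since 449 WT sites then begin at an annotated gene start, against 36 otherwise, and are printed 1-based. Sites overlapping by at least 1 bp were paired without regard to strand. Gene positions, strands (66 of 74 members) and sequences came from RefSeq tables on GRCm38.p6; exons and UTRs were not used here. Wilson intervals are at 95%. Python 3.11.15, pandas 2.3.3, numpy 2.4.6 and scipy 1.17.1 were used, and the overlap and counting code was tested on simulated data. No test between genotypes was run. The members, role lists and markers were chosen with earlier results of these data known. Every member was named. Full values were given for genes with an overlapping pair, those listed in KO only, the 2 strongest by fold enrichment of each role listed in WT only, and those with most WT sites in each role, for their shared or strongest sites; positions of Lman1 and Sil1 sites are not reported here. Other genes were given by fold enrichment, and the stress sensors, BiP, GRP94, Xbp1, Atf4 and Ddit3 in any case.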

Additional observations from a re-analysis of the deposited data

How the results depend on the processing

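No paired analysis was possible because each genotype had 1 library of each kind. Of 73 values recomputed under alternative settings, 59 stayed within the interval or spread of the value reported and 14 moved beyond it, and the cause was not tested. The share of members with a WT site that were also listed in KO was 36.8% with a false discovery rate of at most 50%, 39.1% with at least 5-fold enrichment and 24.3% with an overlapping pair of sites. Over all genes these were 30.2, 32.0 and 20.5%. It was 59.5% (43.9% of all genes) after the WT list was cut to the length of the KO list, 47.7% (33.7%) in the upper 75% of each list by score and, in a setting chosen after seeing the data, 55.2% (38.7%) with sites under 1000 bp. With no gene left out by the rule it was 53.9%. The members' share was above that of all genes in each of these, by amounts that differed. With a pair required, the members' interval (15.8 to 35.5%) held the share of all genes. Intervals were not computed for the other settings, so a small excess there cannot be told apart from counting variation. The false discovery limit kept 54.1% of member KO sites, against 70.1% of all KO sites, and removed the member KO site of highest score. The share of WT sites overlapped was 6.80% at the false discovery limit, against 8.02% of all sites, and 8.84% at 5-fold, against 9.12%, both lower than over all sites, whereas the reported value lay above. By role, folding had 41.7% at the false discovery limit, 33.3% at 5-fold and 30.8% with a pair. Degradation had 33.3% at 5-fold, 87.5% (7 of 8) with the shorter WT list and 22.2% with a pair. The unfolded protein response had 16.7% and export 10% with a pair. The members' median WT fold enrichment was 9.02 with the best site of each gene, against 8.76 over all genes, so it lay above that of all genes in this setting and under it otherwise. The KO median stayed under that of all KO sites in every setting run, at 5.38 to 5.89.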

Other observations

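The genes of the role lists that had a listed site but were no members included further parts of the same machinery. Of these 22 genes, 7 were listed in both genotypes, 5 only in KO and 10 only in WT. Of all 5934 listed genes, 1929 were listed in both, 849 only in KO and 3156 only in WT. The signal peptidase subunit Spcs2 had 1 KO site, with a fold enrichment of 5.28, and 3 WT sites, the best at 11.76, and Sec11c, a catalytic subunit of that enzyme, had 1 WT site of 14.99. The Vcp-binding proteins Ubxn4 and Ubxn2a were both listed in both genotypes, with best fold enrichments of 5.59 in KO and 8.46 in WT for Ubxn4 and of 8.33 in KO and 7.44 in WT for Ubxn2a. The transcription factors Creb3l1 and Creb3l2, relatives of Atf6 that are cut in the Golgi, differed. Creb3l1 had 1 site in each genotype, of 5.88 in KO and 9.03 in WT, and Creb3l2 had 4 WT sites with a best of 11.14 and no KO site.

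The stress-inducible cytosolic Hsp70 genes Hspa1a and Hspa1b, which the rule left out through their spliceosome annotation, were listed in KO only, with 1 site each of 11.08 and 5.29. They are near-identical copies, so reads from one can align to the other. Dnajb9, a J-protein of the ER that is raised by the unfolded protein response, was also listed in KO only, with 1 site of 4.14. These genes were picked out after their values were seen. Of the 5 acinar markers looked up, 2 were listed in KO (Amy2a5 with 3 sites and Cela1 with 1) and 2 in WT (Prss1 with 2 sites and Amy2a5 with 1). Of the 6 endocrine markers, 1 was listed in KO (Gcg with 2 sites) and 4 in WT (Gcg, Ins2, Sst and Chga with 1 site each). Whether RNA levels differed could not be tested.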
